A study of Rattus norvegicus with 9 samples.

Results

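Expression of 10 genes of the transforming growth factor beta (TGF-beta) superfamily was examined in cultured rat Schwann cells. They are the ligand genes Inhba, Tgfb1, Tgfb2, Tgfb3 and Bmp4, the ligand antagonist Fst, the intracellular inhibitor Smad7, and the target genes Id1, Id2 and Id3. Every probe set annotated to exactly 1 of these genes was taken, which gave 16 of the 31042 probe sets on the array, and the 10 genes are among 14213 measured under a single gene name. The genes were chosen by their differences between these groups on these same arrays, so their own values are given as a description and carry no p-value. Primary Schwann cells of rat sciatic nerve were transfected with RNAi oligonucleotides, and total RNA was taken 48 h later and hybridised to 9 Affymetrix arrays. The 3 groups of 3 arrays each were NF1 RNAi together with the MEK inhibitor U0126, NF1 RNAi alone, and Control RNAi with scrambled oligonucleotides. NF1 encodes neurofibromin, a Ras GTPase-activating protein, and U0126 blocks the kinase MEK, which acts below Ras. Cells given Control RNAi with U0126 were not analysed here, so every value under U0126 is from cells that also had NF1 RNAi. The sources used here name no oligonucleotide sequence, no dose or time of addition of U0126 and no vehicle in the other groups.

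TGF-beta superfamily ligands are secreted dimers that bring together type I and type II receptor kinases on the cell surface. TGF-betas and activins (dimers of the chain made from Inhba) signal mainly through one set of receptor-activated Smad proteins, and bone morphogenetic proteins (BMPs) through another, in which Id genes are among the best known targets. In peripheral nerve, TGF-beta is known as a signal between axons, Schwann cells and fibroblasts that acts on Schwann cell growth, myelination and survival.

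Promoter sequences were looked up for the 10 genes in a RefSeq table of build GRCr8, which gives the strand of the gene from 250 bases before to 50 bases after its annotated start. 9 of the 10 genes matched, and Fst did not. Tgfb1 and Tgfb3 are shown because these sister ligand genes differed between the groups in opposite directions, and Inhba and Id1 because their windows hold the SMAD-binding motif CAGAC, which is in capitals. The windows lie at chr1:90324062-90324361 (plus strand) for Tgfb1, chr6:111456897-111457196 (minus strand) for Tgfb3, chr17:53804459-53804758 (minus strand) for Inhba and chr3:161671314-161671613 (plus strand) for Id1.
Tgfb1: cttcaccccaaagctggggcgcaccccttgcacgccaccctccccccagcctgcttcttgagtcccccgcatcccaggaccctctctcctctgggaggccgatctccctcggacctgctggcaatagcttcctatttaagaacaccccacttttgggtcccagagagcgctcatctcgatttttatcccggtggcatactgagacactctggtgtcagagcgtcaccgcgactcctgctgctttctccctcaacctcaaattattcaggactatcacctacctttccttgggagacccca
Tgfb3: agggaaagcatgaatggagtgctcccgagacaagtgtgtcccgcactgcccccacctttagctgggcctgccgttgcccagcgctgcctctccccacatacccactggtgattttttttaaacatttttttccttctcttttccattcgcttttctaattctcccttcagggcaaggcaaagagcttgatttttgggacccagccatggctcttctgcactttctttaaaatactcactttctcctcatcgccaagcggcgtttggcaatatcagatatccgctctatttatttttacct
Inhba: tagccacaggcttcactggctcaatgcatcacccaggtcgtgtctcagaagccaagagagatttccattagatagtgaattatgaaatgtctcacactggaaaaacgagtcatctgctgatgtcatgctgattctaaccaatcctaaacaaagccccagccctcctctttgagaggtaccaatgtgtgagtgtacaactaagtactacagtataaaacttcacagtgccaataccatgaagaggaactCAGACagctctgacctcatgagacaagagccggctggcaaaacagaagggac
Id1: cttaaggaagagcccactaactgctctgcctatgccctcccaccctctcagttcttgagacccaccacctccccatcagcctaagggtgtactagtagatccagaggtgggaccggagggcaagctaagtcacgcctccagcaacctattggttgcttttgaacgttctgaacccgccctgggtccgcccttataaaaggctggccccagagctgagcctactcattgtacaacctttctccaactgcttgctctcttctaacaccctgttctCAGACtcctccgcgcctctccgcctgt
CAGAC or its reverse complement was found in 3 of the 9 matched windows (Inhba, Bmp4 and Id1), against 50.1% of 33469 promoters in the table. The GC-rich SMAD-binding element GGCGCC, its own reverse complement, was found in 1 of the 9 windows, that of Smad7, against 11% of all promoters. Neither the AP-1 motif TGANTCA (7.33% of all promoters) nor the ETS motif CCGGAAG (8.75%), searched on both strands, was in any of the 9. The motifs searched do not overlap one another in these windows. CAGAC begins 2 bases before the start in Inhba and at base 24 after it in Id1. A match only describes the letters of the window.

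All values below are array intensities on a linear scale, as the submitters' multi-array averaging (RMA) made them, given for replicates 1, 2 and 3 of a group in that order. Differences are on the log2(intensity + 1) scale with the standard error (SE) of a fit of all genes over the 9 arrays. The targeted gene, Nf1, had intensities of 42.5, 51.7 and 40.9 in NF1 RNAi + U0126, 41.1, 41.5 and 42.4 in NF1 RNAi, and 99.3, 95.6 and 70.0 in Control RNAi. It was lower by 1.05 ± 0.13 on the log2 scale in NF1 RNAi than in Control RNAi (limma, Benjamini-Hochberg adjusted p = 0.000695). Median intensities of the 9 arrays lay between 94.6 and 96.7. Of 8 Schwann cell markers listed, the 5 with a probe set named here (Sox10, S100b, Ngfr, Erbb3 and Gfap) were above log2 6 on every array. Their median, which was the Sox10 value on each array, ran from 11.06 to 11.47. By limma's adjusted p under 0.05, S100b rose in NF1 RNAi against Control RNAi (0.79) and 4 did not pass. In NF1 RNAi + U0126 against NF1 RNAi, S100b (-0.38), Erbb3 (-1.08) and Gfap (-1.29) fell and 2 did not pass. Against Control RNAi, S100b rose (0.42), Sox10 (-0.22) and Gfap (-1.95) fell, and 2 did not pass. Of 10 fibroblast markers, Col1a1, Col3a1, Thy1 and Ogn were above log2 6 on all arrays, Mfap5 and Fbln1 on some, and Dcn, Lum, Pdgfra and Dpt on none. The number at log2 6 or more on an array was 4 in NF1 RNAi + U0126, 4 in NF1 RNAi and 5 to 6 in Control RNAi. Median log2 values of 8 proliferation genes were 5.52, 4.98 and 5.26 in NF1 RNAi + U0126, 5.88, 5.73 and 5.41 in NF1 RNAi, and 9.12, 6.78 and 6.83 in Control RNAi, so that Control RNAi replicate 1 stood apart. In such bulk RNA, fewer cells of a type and less RNA per cell cannot be told apart.

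Fst differed more between the groups than any of the other 9 genes and was lowest in cells with NF1 RNAi and U0126. Tgfb1 was higher in NF1 RNAi than in Control RNAi and lower again in NF1 RNAi + U0126, below both other groups. Tgfb3 was lower in NF1 RNAi than in either of the other groups. Smad7 was lowest under U0126, Id2 was highest there, and the arrays of the 3 groups overlapped throughout for Tgfb2 and Bmp4.

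**Figure D1:**
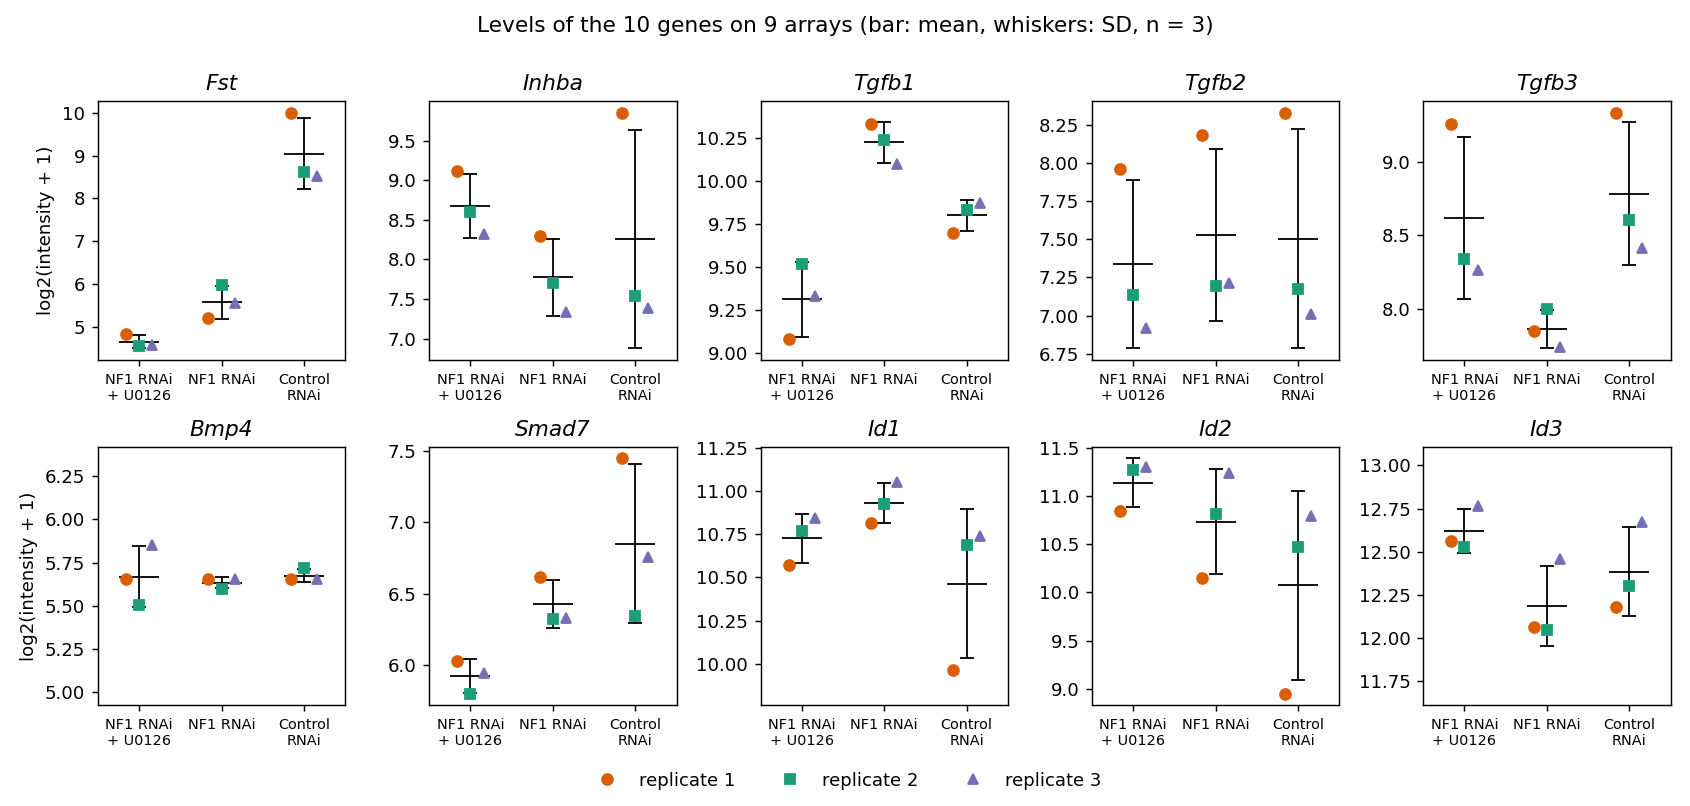
Levels of the 10 genes as log2(intensity + 1) on the y axis, 1 panel per gene, for the groups NF1 RNAi + U0126, NF1 RNAi and Control RNAi on the x axis. Points are arrays with the marker giving the replicate number, the bar is the group mean and whiskers are SD (n = 3). The Fst panel shows all Control RNAi arrays above all others, and Tgfb1 has its 3 groups apart with NF1 RNAi on top.

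Among the ligands, Tgfb1 encodes the TGF-beta best known as a regulator of growth and matrix, and it is measured by 1 probe set (1370082_at). It had intensities of 541, 732 and 645 in NF1 RNAi + U0126, 1287, 1207 and 1093 in NF1 RNAi, and 829.7, 907 and 937 in Control RNAi. No 2 groups overlapped. Tgfb1 was 1.34-fold higher in NF1 RNAi than in Control RNAi, a log2 difference of 0.42 ± 0.11, with same-numbered arrays differing by 0.63, 0.41 and 0.22. In NF1 RNAi + U0126 it was 1.88-fold lower than in NF1 RNAi (-0.91 ± 0.11) and 1.40-fold lower than in Control RNAi (-0.49 ± 0.11). All 3 same-numbered pairs had the same direction in each of the 3 comparisons, which follows from the lack of overlap.

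Tgfb3 encodes a sister ligand that acts through the same receptors. Its intensities on probe set 1367859_at were 609, 323 and 306 in NF1 RNAi + U0126, 230.3, 255 and 213 in NF1 RNAi, and 643, 388 and 339.7 in Control RNAi. NF1 RNAi arrays lay below all other arrays, while NF1 RNAi + U0126 and Control RNAi overlapped. The log2 difference was -0.92 ± 0.29 for NF1 RNAi against Control RNAi (1.89-fold lower) and 0.75 ± 0.29 for NF1 RNAi + U0126 against NF1 RNAi (1.69-fold higher). Replicate 1 carried much of both: same-numbered arrays differed by -1.48, -0.60 and -0.67 in the first comparison and by 1.40, 0.34 and 0.52 in the second. NF1 RNAi + U0126 differed from Control RNAi by -0.16 ± 0.29.

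Tgfb2, the remaining TGF-beta ligand gene, had 248, 139.7 and 119.8 in NF1 RNAi + U0126, 289, 145 and 148 in NF1 RNAi, and 321, 143 and 128 in Control RNAi. Its groups overlapped in every comparison, with log2 differences between -0.19 and 0.03 (SE 0.42 each), and its other probe set also overlapped throughout. What separated the Tgfb2 values was the replicate number: replicate 1 was above the mean of replicates 2 and 3 by 0.94 in NF1 RNAi + U0126, 0.98 in NF1 RNAi and 1.24 in Control RNAi on the log2 scale.

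Inhba encodes the beta A chain of activin A and of inhibin A. On probe set 1383486_at it had 552, 385 and 319.7 in NF1 RNAi + U0126, 312, 207 and 160.4 in NF1 RNAi, and 922, 185 and 167 in Control RNAi. Every NF1 RNAi + U0126 array was above every NF1 RNAi array, and the Control RNAi arrays spanned both. The log2 difference for NF1 RNAi + U0126 against NF1 RNAi was 0.90 ± 0.59, with same-numbered arrays differing by 0.82, 0.89 and 0.99. Its SE is set by Control RNAi replicate 1: without that array NF1 RNAi differed from Control RNAi by 0.31 in place of -0.49, and NF1 RNAi + U0126 from Control RNAi by 1.21 in place of 0.42. The other Inhba probe set, 1369012_at, overlapped in all comparisons and gave 0.20 ± 0.12 for NF1 RNAi + U0126 against NF1 RNAi, so the 2 probe sets differ in size.

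Bmp4, a BMP ligand gene, had 49.3, 44.3 and 56.7 in NF1 RNAi + U0126, 49.3, 47.4 and 49.3 in NF1 RNAi, and 49.3, 51.7 and 49.3 in Control RNAi. Its log2 means were under the value of 6 used here as the limit for dim probe sets, and its 3 log2 differences lay between -0.04 and 0.03 (SE 0.08 each). A difference in Bmp4 was not detectable at this signal. Closest to Bmp4 in centred log2 values over the 9 arrays were F2rl1 (root mean square difference 0.035), Zcchc3 (0.038) and Zfp574 (0.051), beside an SD of 0.09 for Bmp4 itself. With so small an SD, this likeness says only that these genes also varied little.

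Fst encodes follistatin, a secreted protein that binds activin tightly and keeps it from its receptors. On probe set 1372750_at it had 27.4, 22.6 and 22.9 in NF1 RNAi + U0126, 35.8, 61.6 and 46.5 in NF1 RNAi, and 1022, 394 and 365 in Control RNAi. The groups were in this order with no overlap, and Control RNAi replicate 1 was the highest array by a wide margin. Fst was 11.1-fold lower in NF1 RNAi than in Control RNAi (log2 difference -3.47 ± 0.36) and 21.0-fold lower in NF1 RNAi + U0126 than in Control RNAi (-4.39 ± 0.36). With all replicate 1 arrays left out, the first of these was -2.80. Between NF1 RNAi + U0126 and NF1 RNAi the difference was -0.92 ± 0.36, or 1.90-fold lower, with same-numbered arrays differing by -0.37, -1.41 and -0.99.

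The other Fst probe set, 1387843_at, gave 45.5, 38.0 and 44.2 in NF1 RNAi + U0126, 52.0, 62.5 and 51.7 in NF1 RNAi, and 498, 191 and 161 in Control RNAi. It had the same order of groups with smaller log2 differences. These were -2.15 ± 0.35 for NF1 RNAi against Control RNAi and -2.52 ± 0.35 for NF1 RNAi + U0126 against Control RNAi. Between NF1 RNAi + U0126 and NF1 RNAi it gave -0.37 ± 0.35. Log2 means in NF1 RNAi + U0126 and NF1 RNAi were 4.66 and 5.58 on 1372750_at and 5.44 and 5.81 on 1387843_at. All of these are under the limit of 6 used here for dim probe sets. Genes whose centred log2 values lay closest to those of Fst over the 9 arrays were Racgap1, a regulator of cytokinesis, with a root mean square difference of 0.59, Pclaf, a protein bound to the replication clamp PCNA (0.63), and Gatm, an enzyme of creatine synthesis (0.63). The SD of Fst itself over these arrays was 2.06. The proliferation genes given above were also highest in Control RNAi and on its replicate 1, and their part in the Fst values was not tested.

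Smad7 encodes an inhibitory Smad that blocks the activated type I receptor and is itself a feedback target of TGF-beta. On probe set 1368896_at it had 64.3, 54.7 and 60.5 in NF1 RNAi + U0126, 97.2, 79.1 and 79.4 in NF1 RNAi, and 173, 80.3 and 107 in Control RNAi. NF1 RNAi + U0126 lay below both other groups without overlap, and those overlapped each other. The log2 difference was -0.92 ± 0.23 for NF1 RNAi + U0126 against Control RNAi (1.90-fold lower) and -0.50 ± 0.23 against NF1 RNAi. The other Smad7 probe sets, 1368897_at and 1368898_at, gave -0.12 ± 0.07 and 0.06 ± 0.09 for NF1 RNAi + U0126 against Control RNAi. The mean of all 3 probe sets gave -0.33. On 1368897_at NF1 RNAi + U0126 also lay below Control RNAi without overlap, but its log2 group means were only 3.96 to 4.09. The groups overlapped throughout on 1368898_at, with log2 means of 5.93 to 6.01, near the dim limit of 6. A Smad7 difference of the size given above therefore rests on 1 of 3 probe sets, and the others were dim or near that limit.

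Id proteins lack a DNA-binding region and hold basic helix-loop-helix factors in inactive dimers. Id1 had 1519, 1742 and 1836 in NF1 RNAi + U0126, 1804, 1943 and 2122 in NF1 RNAi, and 998, 1647 and 1708 in Control RNAi. It was 1.38-fold higher in NF1 RNAi than in Control RNAi without overlap (log2 difference 0.47 ± 0.19), and same-numbered arrays differed by 0.85, 0.24 and 0.31. NF1 RNAi + U0126 overlapped both other groups in Id1, with differences of -0.20 ± 0.19 against NF1 RNAi and 0.26 ± 0.19 against Control RNAi. Closest to Id1 in centred log2 values over the 9 arrays were Sema3e (root mean square difference 0.056), Uba6 (0.069) and Klc1 (0.071), beside an SD of 0.31 for Id1 itself.

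Id2 had 1834, 2464 and 2516 in NF1 RNAi + U0126, 1138, 1796 and 2412 in NF1 RNAi, and 493.5, 1422 and 1771 in Control RNAi. Only NF1 RNAi + U0126 and Control RNAi did not overlap, with a log2 difference of 1.06 ± 0.45, or 2.09-fold higher in NF1 RNAi + U0126. Replicate 1 minus the mean of replicates 2 and 3 was -0.44 in NF1 RNAi + U0126, -0.87 in NF1 RNAi and -1.68 in Control RNAi on the log2 scale, the opposite direction to Tgfb2. The second Id2 probe set, 1368870_at, gave 0.99 ± 0.40 for the same comparison. The proliferation genes ran the other way on Control RNAi replicate 1, and their part in the Id2 values was not tested.

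Id3 had 6047, 5903 and 6953 in NF1 RNAi + U0126, 4276, 4222 and 5616 in NF1 RNAi, and 4629.9, 5039 and 6529 in Control RNAi. NF1 RNAi + U0126 lay above NF1 RNAi without overlap, by 0.43 ± 0.15 on the log2 scale or 1.35-fold, and both groups overlapped Control RNAi. By group mean the 3 Id genes had different orders: Id1 was highest in NF1 RNAi, and Id2 and Id3 were highest in NF1 RNAi + U0126. Whether the Id genes differ in their response was not tested.

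**Figure D2:**
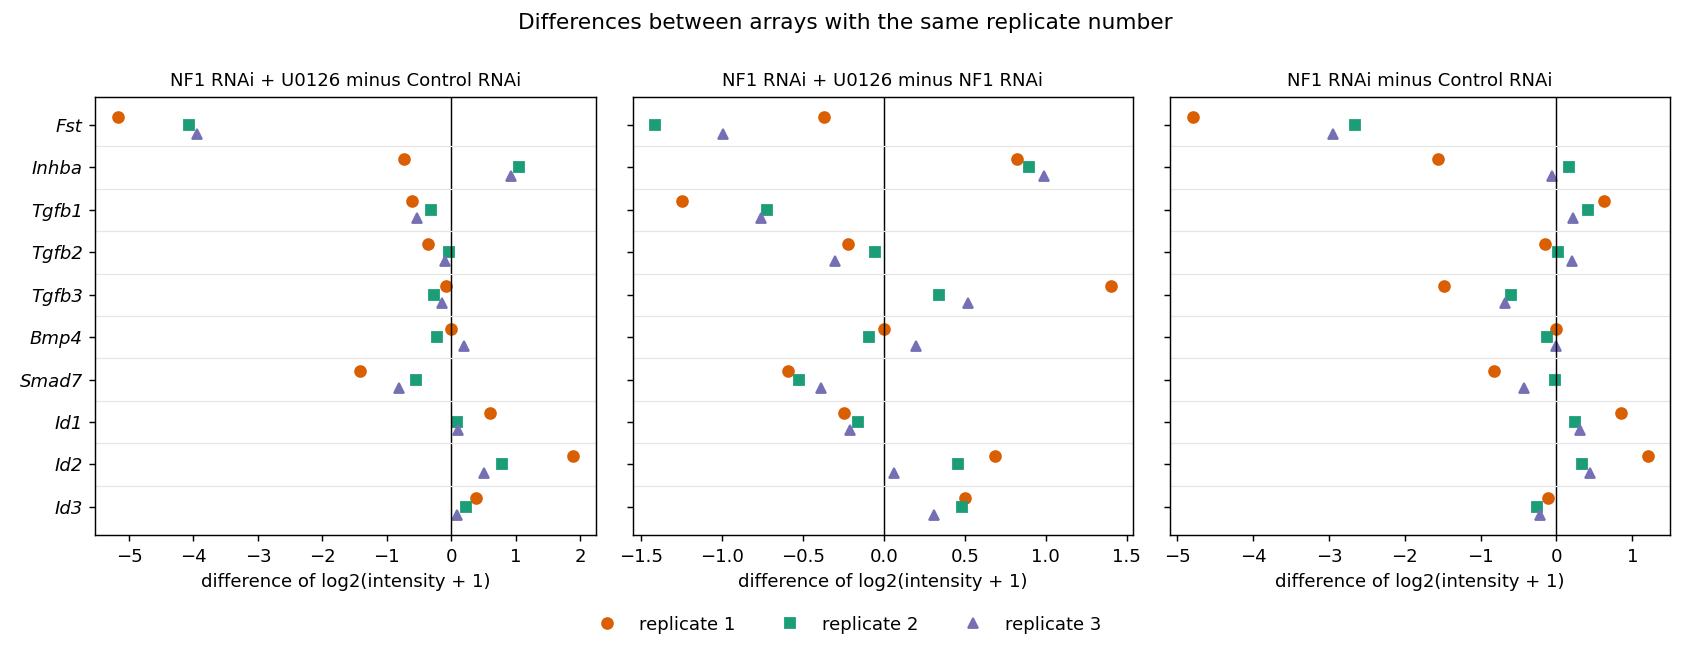
Log2 differences between same-numbered arrays for the 10 genes (genes down the page, log2 difference on the x axis, marker by replicate number), in 3 panels: NF1 RNAi + U0126 minus Control RNAi, NF1 RNAi + U0126 minus NF1 RNAi, and NF1 RNAi minus Control RNAi. Fst lies left of 0 in all 9 pairs, Tgfb1 changes side between panels, and replicate 1 is often the farthest from 0.

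Fst, Tgfb3 and Tgfb1 were 3 of the 10 genes past the adjusted p threshold of 0.05 for NF1 RNAi against Control RNAi, beside 26.3% of all 14213 genes. With a block for the replicate number Id1 passed as well, which made 4. Fst alone stayed past the threshold without Control RNAi replicate 1, without NF1 RNAi replicate 1 or without NF1 RNAi replicate 2, and without Control RNAi replicate 2 Fst and Smad7 passed. Tgfb3 was lost as well without NF1 RNAi replicate 3 or NF1 RNAi + U0126 replicate 2 or 3, after quantile normalization, and with an intensity trend and robust prior in the fit. For NF1 RNAi + U0126 against NF1 RNAi, Tgfb1 was the 1 gene past the threshold, beside 13.7% of all genes. There the block added Tgfb3 and Id3 and made 3, leaving out Control RNAi replicate 1 made 4 (Inhba, Fst, Tgfb1 and Smad7), and leaving out all replicate 1 arrays made 5 (Tgfb3 in addition). For NF1 RNAi + U0126 against Control RNAi, 3 genes passed (Fst, Tgfb1 and Smad7), beside 35.5% of all genes, and the block added Id2 and Id3 to make 5. Smad7 was lost there without NF1 RNAi + U0126 replicate 2. Arrays did not overlap for 4, 6 and 4 of the 10 genes in these comparisons, beside 41.2%, 33.9% and 47.2% of all genes. The 10 genes had median log2 differences of -0.12, -0.08 and -0.09, beside 0.02, 0.02 and 0.04 over all genes. Because these comparisons chose the genes, nothing is read from the calls, from their counts or from which calls were kept or lost. The comparisons also share arrays.

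The wider pathway was described with 91 genes in 8 lists, of which 80 had a probe set named here. The lists were chosen with earlier results of these data known. Their counts and adjusted p-values therefore describe these arrays and are no independent test. In cells with NF1 RNAi against Control RNAi, 24 of the 80 passed limma's test with Benjamini-Hochberg adjustment over all genes, 12 rising and 12 falling (30%, beside 26.3% of all genes, 13% rising and 13.3% falling). Among the TGF-beta targets, Ccn2, Tagln and Bhlhe40 had the largest changes. Ccn2, a matricellular growth factor, had 2285, 854 and 526 in NF1 RNAi + U0126, 1442, 1396 and 817 in NF1 RNAi, and 14672, 9432 and 8025 in Control RNAi. It fell by 3.13 on the log2 scale in NF1 RNAi (SE 0.49, adjusted p = 0.00188). Tagln, an actin-binding protein of contractile cells, fell by 2.63 (SE 0.40, adjusted p = 0.00168) and Bhlhe40, a helix-loop-helix repressor, fell by 1.84 (SE 0.34, adjusted p = 0.00453). Of the 12 measured TGF-beta targets 4 fell and 1 rose, the transcription factor Snai1 (0.62 ± 0.15, adjusted p = 0.0138), and the list's median was -0.52. Ccn2 and Tagln are also known as targets of YAP and of SRF. Bhlhe40 was dim, at log2 6 or more on fewer than 3 of the 9 arrays. Of the 10 fibroblast markers, Col3a1 (-2.06, adjusted p = 0.00346) and Mfap5 (-1.83, adjusted p = 0.00052) fell, Ogn rose (0.68, adjusted p = 0.0171) and 7 did not pass. The list's median of 0.03 lay between Dpt (-0.06) and Pdgfra (0.12), which were under log2 6 on every array. Col1a1, among the 7, gave -0.21 ± 0.11 without overlap. Its other probe set fell by 0.65 (SE 0.15, adjusted p = 0.0156, limma over all probe sets), also without overlap. The summed intensity of the 10 markers, most of it from Col1a1 and Col3a1, was 12300 to 17415 in NF1 RNAi + U0126, 15548 to 16681 in NF1 RNAi and 21287 to 23492 in Control RNAi. The part of these markers and of the proliferation genes in the target values was not tested.

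Among 11 measured ligand antagonists besides Fst, 3 fell and 2 rose in NF1 RNAi against Control RNAi. Sostdc1, a secreted BMP and Wnt antagonist, had 51.0, 52.2 and 42.6 in NF1 RNAi + U0126, 61.2, 82.0 and 73.0 in NF1 RNAi, and 417, 422 and 427 in Control RNAi. It fell by 2.54 (SE 0.11, adjusted p = 4.98e-06). Fstl3, a follistatin relative that also binds activin, had 351, 204 and 157 in NF1 RNAi + U0126, 165, 139 and 127 in NF1 RNAi, and 1232, 668 and 555 in Control RNAi, and fell by 2.42 (SE 0.34, adjusted p = 0.00104). Fstl1, a secreted glycoprotein of the follistatin family, fell by 0.91 (SE 0.24, adjusted p = 0.0209), a call lost without NF1 RNAi replicate 2 or 3 (-1.07 to -0.69 over the alternatives). Bambi, a membrane pseudoreceptor that dampens TGF-beta signalling, rose by 1.05 ± 0.08 (adjusted p = 6.33e-05).

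Of the 9 genes for storage and activation of latent TGF-beta, Ltbp4, a latent TGF-beta binding protein of the matrix, had 85.3, 79.6 and 66.5 in NF1 RNAi + U0126, 78.5, 103 and 85.4 in NF1 RNAi, and 346, 434 and 307 in Control RNAi. It fell 4.01-fold in NF1 RNAi (SE 0.15 on the log2 scale, adjusted p = 5.9e-05). Itgav, the alpha chain of integrins that release TGF-beta, rose by 0.88 ± 0.18 (adjusted p = 0.00746), and Ltbp3 rose by 0.34 ± 0.07 (adjusted p = 0.0061). None of the 7 measured TGF-beta and activin receptor genes passed for NF1 RNAi against Control RNAi. Tgfbr2 and Acvr1b of this list had no probe set named here. Tgfbr3 gave -0.31 ± 0.16 with overlap on the probe set that stood for it. Its other probe set gave -0.87 ± 0.20 without overlap (adjusted p = 0.0129, limma over all probe sets). For NF1 RNAi + U0126 against Control RNAi the 2 Tgfbr3 probe sets gave -0.23 ± 0.16 and -0.73 ± 0.20, the second without overlap. Of 7 activin-type and related ligands Gdf11 passed, with 5196, 5029 and 5529.8 in NF1 RNAi + U0126, 5742, 5948 and 5446 in NF1 RNAi, and 1946, 2888 and 2782 in Control RNAi, a rise of 1.19 ± 0.14 (adjusted p = 0.000374). Of 15 Smads and their regulators 5 rose and 1 fell, and the 4 with the largest change were Smurf1 (0.77 ± 0.08), Nedd4l (0.73 ± 0.09), Smad1 (0.60 ± 0.13) and Tgif2 (0.40 ± 0.09). Smurf1 and Nedd4l are ubiquitin ligases that act on Smads and receptors, Smad1 is a receptor-activated Smad of the BMP branch, and Tgif2 is a Smad corepressor. Their adjusted p-values ran from 0.000295 to 0.00832. Of 11 BMP ligands and receptors, Bmp3 rose (1.08 ± 0.33, adjusted p = 0.0393) and Bmpr2 fell by 0.48 (SE 0.12, adjusted p = 0.0149). The Bmp3 call was lost whichever NF1 RNAi array was left out and without NF1 RNAi + U0126 replicate 2 or 3, with log2 differences of 0.55 to 1.31 over the alternatives, and the Bmpr2 call without NF1 RNAi replicate 2 or 3 and with the mean of its probe sets (-0.59 to -0.23). Among 8 BMP targets and partners of Id proteins, Tcf12, an E protein of the class that Id proteins bind, fell by 0.69 (SE 0.10, adjusted p = 0.0011), and Atoh8, a helix-loop-helix factor, fell by 0.33 (SE 0.10, adjusted p = 0.0333), a call lost whichever NF1 RNAi array was left out and without Control RNAi or NF1 RNAi + U0126 replicate 3 (-0.39 to -0.23). With the replicate block Ltbp1 (0.74, adjusted p = 0.00157), Tgif1 (-0.38, adjusted p = 0.0227) and Smad5 (-0.39, adjusted p = 0.00737) passed as well. The other Smad5 probe sets overlapped between these groups and gave -0.19 ± 0.10, -0.22 ± 0.14 and -0.01 ± 0.06 without the block.

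Adding U0126 to NF1 RNAi changed 14 of the 80 genes, 4 rising and 10 falling (17.5%, beside 13.7% of all genes, 6.71% rising and 7.02% falling). Nbl1, a secreted BMP antagonist, had 2057, 2999 and 3325 in NF1 RNAi + U0126, 344, 694 and 787 in NF1 RNAi, and 312, 719 and 932 in Control RNAi, and rose by 2.25 ± 0.43 against NF1 RNAi (adjusted p = 0.00917). Bambi fell by 0.55 (SE 0.08, adjusted p = 0.00273), with 927, 804 and 809 in NF1 RNAi + U0126 against 1336, 1185 and 1185 in NF1 RNAi, and Sostdc1 fell further by 0.55 (SE 0.11, adjusted p = 0.0117). Sostdc1 was under the dim limit of log2 6 on every NF1 RNAi + U0126 array and near it in NF1 RNAi (mean log2 6.18). Like Tgfb1, Bambi was highest in NF1 RNAi, and so was Snai1, which fell by 0.95 (SE 0.15, adjusted p = 0.00343). Of the 12 TGF-beta targets 3 fell and 1 rose, with a median of -0.29. Ldlrad4, a membrane protein that restrains TGF-beta signalling, fell by 0.95 (SE 0.17, adjusted p = 0.00706) and Col1a2, a collagen chain, fell by 0.34 (SE 0.09, adjusted p = 0.0286). Cdkn2b, an inhibitor of cyclin-dependent kinases, rose by 0.70 ± 0.07 (adjusted p = 0.000325), with 378, 414 and 398 in NF1 RNAi + U0126 against 262, 241 and 229 in NF1 RNAi.

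Storage genes Ltbp1 and Itgav fell in NF1 RNAi + U0126 against NF1 RNAi, with log2 differences of -1.66 ± 0.37 (adjusted p = 0.0176) and -0.69 ± 0.18 (adjusted p = 0.0365). Among the 15 Smads and regulators 2 rose and 3 fell, led by the corepressor Tgif1 (0.82 ± 0.16, adjusted p = 0.0117), with Smad1 (-0.55 ± 0.13), Smad5 (-0.49 ± 0.13) and Smad9 (0.47 ± 0.13) of the BMP branch at adjusted p-values of 0.0222 to 0.0446. A second Smad9 probe set gave 0.02, and the first was dim, at log2 6 or more on fewer than 3 of the 9 arrays. No gene of the receptor, activin-type ligand, BMP ligand and receptor or BMP target lists passed. The count of 14 was sensitive to single arrays: it was 9, 7 and 9 without NF1 RNAi replicates 1, 2 and 3, and 8 and 9 without NF1 RNAi + U0126 replicates 2 and 3. The calls for Smad1 and Smad9 were lost whichever array of the 2 groups was left out, and those for Itgav and Col1a2 likewise except for NF1 RNAi + U0126 replicate 1, for Itgav also without Control RNAi replicate 2. The Ltbp1 call was lost without NF1 RNAi replicate 1 or 2 or NF1 RNAi + U0126 replicate 2 or 3, the Tgif1 call without NF1 RNAi replicate 2, and the Smad5 call without Control RNAi or NF1 RNAi replicate 2 or 3 or NF1 RNAi + U0126 replicate 1 or 2. Over all alternatives Ltbp1 stayed between -1.94 and -1.43 and Smad9 between 0.25 and 0.55. Other probe sets, on the same arrays, gave -0.54 for Smad1, -0.52, -0.54 and -0.58 for Smad5, -0.94 and -0.85 for Itgav and -0.58 for Col1a2. None of these overlapped between the 2 groups, and their adjusted p-values (limma over all probe sets) ran from 0.000619 to 0.0438. With the replicate block 22 passed, 7 rising and 15 falling, among them Fstl3 (0.65, adjusted p = 0.0233), Fstl1 (-0.60, adjusted p = 0.0011) and Skil (-0.47, adjusted p = 0.0228), and with all replicate 1 arrays left out 23 passed.

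In NF1 RNAi + U0126 against Control RNAi 28 of the 80 genes passed, 10 rising and 18 falling (35%, beside 35.5% of all genes, 17.9% rising and 17.6% falling). After quantile normalization the split was 13 rising and 15 falling. TGF-beta targets fell in 7 of 12 cases with 1 rising, and their median was -0.84. Their log2 differences were -3.36 ± 0.49 for Ccn2 (adjusted p = 0.000751), -2.70 ± 0.40 for Tagln (adjusted p = 0.000845), -1.74 ± 0.34 for Bhlhe40 (adjusted p = 0.00394) and -1.40 ± 0.17 for Ldlrad4 (adjusted p = 0.000294). Of the 8 proliferation genes 7 fell in NF1 RNAi + U0126 against Control RNAi. Of the 10 fibroblast markers Col1a1 (-0.56), Col3a1 (-1.60) and Mfap5 (-1.92) fell, Ogn rose (2.05) and 6 did not pass, at adjusted p-values of 3.5e-05 to 0.00801 for those that did. The part of either list in these values was not tested. Of the 11 antagonists 3 fell and 2 rose: Sostdc1 (-3.10 ± 0.11), Fstl3 (-1.78 ± 0.34) and Fstl1 (-1.52 ± 0.24) fell, and Nbl1 rose by 2.20 ± 0.43, with adjusted p-values from 1.12e-06 to 0.00372.

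Among storage genes in the same comparison, Ltbp4 fell by 2.21 (SE 0.15, adjusted p = 1.53e-05) and Furin, a protease that processes TGF-beta precursors, fell by 0.52 (SE 0.17, adjusted p = 0.0379), while Ltbp3 (0.31 ± 0.07) and Lrrc32 (0.27 ± 0.06), which anchors latent TGF-beta at the cell surface, rose. Lrrc32 was under the dim limit of log2 6 on every array, with intensities of 24.0 to 31.9. Gdf11 rose by 1.07 ± 0.14 (adjusted p = 0.000343). Smads and regulators rose in 3 and fell in 3 of 15 cases, among them Smad5 (-0.88 ± 0.13), the corepressor Skil (-0.76 ± 0.14), Smurf1 (0.76 ± 0.08) and Nedd4l (0.74 ± 0.09), at adjusted p-values of 0.000164 to 0.00229. The receptor Acvr2b fell by 0.31 (SE 0.11, adjusted p = 0.0469), a call lost with the replicate block (adjusted p = 0.056), and the BMP coreceptor Rgmb rose by 0.27 ± 0.09 (adjusted p = 0.0361). Tcf12 fell by 0.67 (SE 0.10, adjusted p = 0.000764) and Atoh8 fell by 0.37 (SE 0.10, adjusted p = 0.0169). The Atoh8 call was lost without NF1 RNAi + U0126 replicate 2, and those for Furin, Acvr2b and Rgmb whichever NF1 RNAi + U0126 array was left out. Furin was lost also without Control RNAi or NF1 RNAi replicate 1, Acvr2b without replicate 2 or 3 of Control RNAi or NF1 RNAi, and Rgmb without Control RNAi replicate 2 or 3 or whichever NF1 RNAi array was left out. Furin stayed between -0.64 and -0.28 over all alternatives. With the replicate block Ltbp1 (-0.92, adjusted p = 0.000367), Tgif1 (0.44, adjusted p = 0.00972), Snai1 (-0.33, adjusted p = 0.00583), Bmpr2 (-0.33, adjusted p = 0.00815) and Tgif2 (0.22, adjusted p = 0.0126) passed too.

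**Figure D3:**
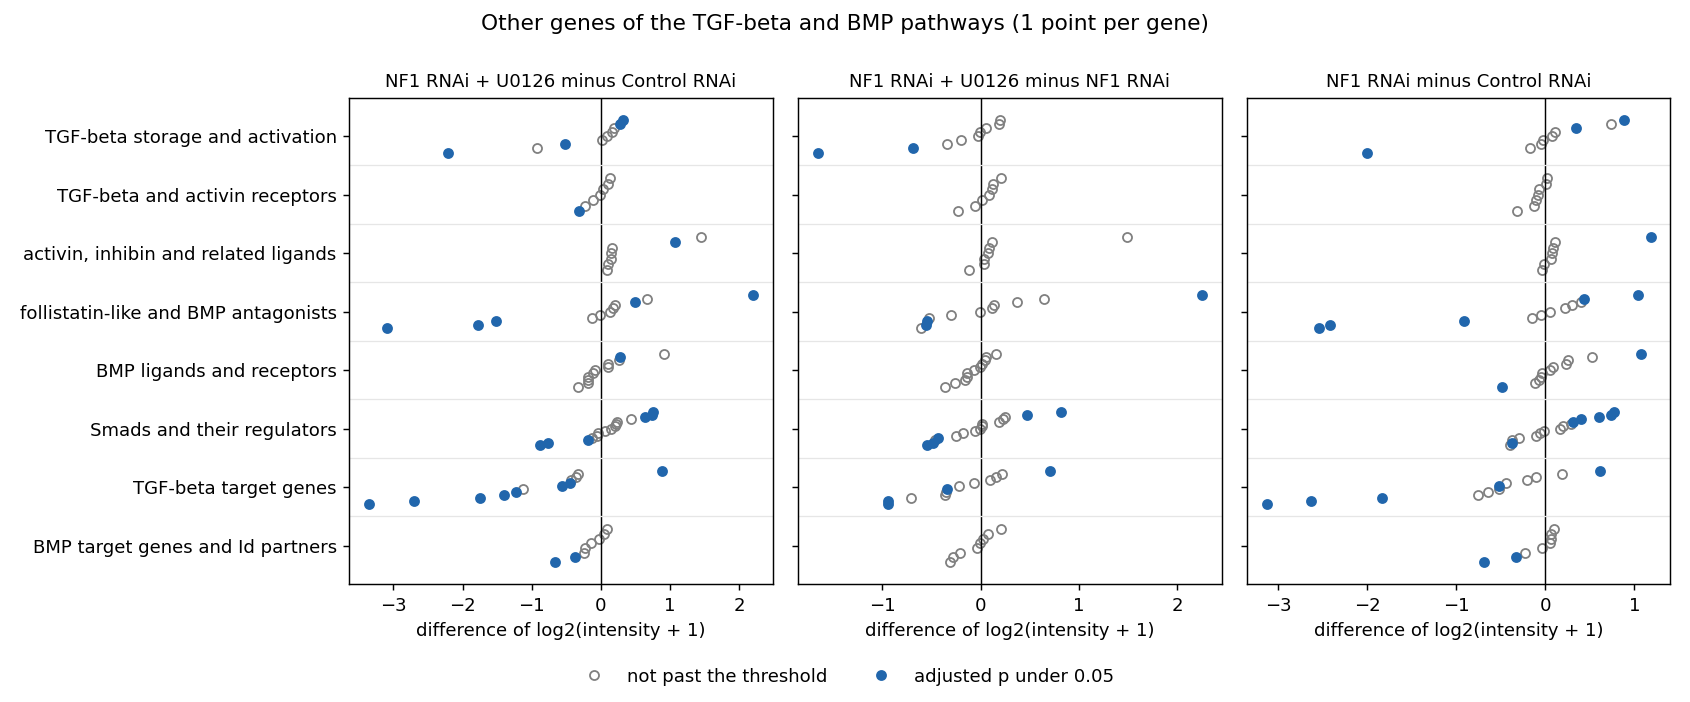
Log2 differences of the 80 measured pathway genes (x axis) by list (down the page), 1 point per gene, filled where limma's adjusted p is under 0.05, in 3 panels: NF1 RNAi + U0126 minus Control RNAi, NF1 RNAi + U0126 minus NF1 RNAi, and NF1 RNAi minus Control RNAi. The TGF-beta targets reach furthest left against Control RNAi, with Ccn2 at -3.36 and -3.13, and fewer points are filled between NF1 RNAi + U0126 and NF1 RNAi (14) than in the other panels (28 and 24).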

How the data were processed

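Total RNA of 9 cultures was labelled with biotin and hybridised to Affymetrix arrays. The deposited intensity values, 1 linear value for each probe set on each array, were made by the authors with RMA (background correction, quantile normalization and median polish), per the submitters' processing notes, which name RMA but not its settings. RMA compresses differences of dim probe sets. No scanner files were used here. From the deposited intensities, log2(value + 1) was computed, and 57 control probe sets were left out of 31099. Of the 31042 others, 20826 had 1 gene in the platform annotation, 436 had several and 9780 had none; only the first kind were named, with symbols updated through a RefSeq table. For a gene with several probe sets the one of highest mean over all arrays stood for it, which gave 14213 genes. No filter on low values was used. limma 3.58.1 in R 4.3.3 fitted 3 group means over all 9 arrays (6 residual degrees of freedom), with Benjamini-Hochberg adjustment over all genes and a threshold of 0.05. The fit was tested on simulated data.

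The 10 genes and the pathway lists were chosen with earlier results of these data known. In each list and comparison up to 4 genes past the threshold with the largest log2 difference are named, and for likeness the genes with the smallest root mean square difference of centred log2 values among genes with mean log2 of at least 6. The design text speaks of independent biological replicates, but nothing says what a shared number marks, so the p-values measure the spread between these cultures. After group means were removed, same-numbered arrays correlated with r of 0.17 to 0.62 in 9 pairs, against -0.52 to 0.40 in 18 pairs with different numbers. Pairs of replicate 1 arrays had r of 0.37 to 0.62. Among replicates 2 and 3, r was 0.17 to 0.34 for the same number and 0.14 to 0.40 for different numbers, so these 2 numbers were not told apart. An alternative fit with a replicate block treated the numbers as pairing the arrays. The number of arrays limits the precision. Promoter sequences are RefSeq's, build GRCr8.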

Additional observations from a re-analysis of the deposited data

How the results depend on the processing

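The 10 genes and the 80 pathway genes were recomputed with 8 alternatives (among them a replicate block, quantile normalization and only the 2 groups compared) and with each of the 9 arrays left out. No called value changed its direction. The count of the 10 genes past the threshold ran from 1 to 3 for NF1 RNAi against Control RNAi, from 1 to 4 for NF1 RNAi + U0126 against NF1 RNAi and from 2 to 4 for NF1 RNAi + U0126 against Control RNAi over single arrays left out. With the replicate block it was 3 for NF1 RNAi + U0126 against NF1 RNAi and 5 for NF1 RNAi + U0126 against Control RNAi, and with all replicate 1 arrays left out 5 in both. With only the 2 groups in the fit it was 3 for NF1 RNAi + U0126 against NF1 RNAi. These counts describe chosen genes, and nothing is read from them. Counts of pathway genes ran from 17 to 27, from 7 to 18 and from 22 to 32 over single arrays left out, and the second was 22 with the replicate block and 23 without replicate 1. The mean of its probe sets gave Fst -2.81 for NF1 RNAi against Control RNAi and -3.46 for NF1 RNAi + U0126 against Control RNAi. Tgfb1 in NF1 RNAi + U0126 against NF1 RNAi was -0.74 with all replicate 1 arrays left out. Another background correction cannot be had from values already made by RMA and was not run. With 3 arrays a group, and dim probe sets such as that of Bmp4 near background, differences of this size may go undetected. The cause of these shifts was not tested.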
